A study of Mus musculus with 14 samples.

Results

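The 10 genes Col4a1, Col4a2, Col4a3, Col4a4, Lama1, Lamb1, Lamc1, Nid1, Nid2 and Hspg2 encode the main proteins of the lens capsule and of other basement membranes. They were chosen by name, and every probe set annotated to 1 of them alone was taken. All 10 genes were among the 12393 genes on the array, with 16 of the 20380 probe sets that carry a single gene. A probe set is the group of oligonucleotide probes that reports 1 transcript. Of the 10 genes, 5 had 1 probe set, 4 had 2 and Lamb1 had 3. In the counts below a member is 1 of these 16 probe sets, so a gene can be counted more than 1 time.

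The lens capsule is a thick basement membrane that encloses the lens. Lens epithelial cells secrete its anterior face and elongating fibre cells its posterior face, and it grows throughout life. Collagen IV chains wind into trimers that join into a network, laminin trimers polymerise on the cell surface, and nidogens and the heparan sulphate proteoglycan perlecan bridge the networks. The same proteins line the blood vessels, retina, cornea and muscles of the eye, so that a whole-eye level sums all of these sources.

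The data were 14 single-channel arrays of RNA from whole eyes of mice at postnatal day 1, made from 50 ng of total RNA each. In the Snf2h experiment, on the C57BL/6 strain, 4 eye samples with lens-conditional deletion of Snf2h (Smarca5), the ATPase of ISWI chromatin remodellers, were set against 4 wildtype samples. In the Brg1 experiment, on a mixed background, 3 samples labelled Brg1 conditional knockout (Brg1 is Smarca4, an ATPase of SWI/SNF remodellers) were set against 3 wildtype samples. The labels give the driver of deletion for neither line, nor the cells in which Brg1 was deleted, and they do not say whether a sample was 1 animal or a pool. Knockout samples are called cKO. Values are log2 of array intensity, a knockout effect is the cKO mean minus the wildtype mean of the same experiment on the log2 scale, and levels of different probe sets cannot be set against each other.

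Median intensity lay between 100.8 and 113.6 on all arrays. The 3 probe sets of Smarca5 read 70.9%, 87.5% and 124% of wildtype in Snf2h cKO eyes (adjusted p = 0.188, 0.711 and 0.538, limma). The 2 probe sets of Smarca4 read 103% and 59.8% of wildtype in Brg1 cKO eyes (adjusted p = 0.972 and 0.579), so the arrays did not show a loss of either deleted gene that passed the test. Snf2h cKO replicates 1 and 2 were near-identical, with an SD of 0.217 over the probe set differences where the other 17 pairs of replicates had 0.419 to 0.723. The excess of 3' over 5' signal for Gapdh, a measure of RNA degradation, was 4.47 (log2) in Snf2h wildtype replicate 3. The remaining wildtype arrays of that experiment had 1.09 to 1.46 and its cKO arrays 0.78 to 0.99. The mean log2 level of 7 cornified skin markers was 7.33 in that array and 5.08 to 5.30 in the other wildtype arrays. The mean over 9 lens markers was 10.63 to 11.33 in the wildtype arrays of the Snf2h experiment and 11.42 to 11.54 in those of the Brg1 experiment, so lens RNA was present in all wildtype samples.

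Col4a1 and Col4a2 encode the chains of the collagen IV trimer that is found in nearly all basement membranes. The genes lie head to head and are transcribed away from a common start region. RefSeq promoter windows, which run from 250 bases before to 50 bases after the start of a gene, matched 6 of the 10 genes on GRCm38.p6. The windows of Col4a1 (chr8:11312777-11313076, minus strand) and Col4a2 (chr8:11312555-11312854, plus strand) are shown because their probe sets moved together. Each is written 5′ to 3′ on its own strand, and the capitals mark the 78 bases, chr8:11312777-11312854, that lie in both.
Col4a1: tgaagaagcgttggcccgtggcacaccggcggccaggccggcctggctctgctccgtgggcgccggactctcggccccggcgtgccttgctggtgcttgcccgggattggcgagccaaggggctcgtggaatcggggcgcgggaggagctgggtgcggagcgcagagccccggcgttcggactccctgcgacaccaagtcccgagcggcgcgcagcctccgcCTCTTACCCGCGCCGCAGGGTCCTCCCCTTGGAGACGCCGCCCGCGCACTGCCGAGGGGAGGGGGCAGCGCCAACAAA
Col4a2: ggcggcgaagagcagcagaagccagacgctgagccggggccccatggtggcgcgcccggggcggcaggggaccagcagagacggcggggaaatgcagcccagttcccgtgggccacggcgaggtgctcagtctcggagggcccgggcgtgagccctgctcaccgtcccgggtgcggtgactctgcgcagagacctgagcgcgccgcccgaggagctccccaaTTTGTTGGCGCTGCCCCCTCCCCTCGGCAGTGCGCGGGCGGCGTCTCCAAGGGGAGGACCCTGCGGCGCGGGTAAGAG
The starts of the 2 windows' genes were 21 bases apart on opposite strands, each inside the stretch transcribed from the other. All 78 shared bases lay within the 50 bases after 1 start or the other, so they are not upstream of both genes. GC made up 74% of the Col4a1 window, 73.7% of the Col4a2 window and 73.1% of the shared bases, against a median of 52.7% over all 32841 windows of the same length. Searched on both strands, the GC box GGGCGG occurred 1 time in the Col4a1 window and 3 times in the Col4a2 window, with 1 occurrence in the shared bases, and 35.7% of all windows held it. The CCAAT box CCAAT occurred 1 time in each window, not wholly inside the shared bases, and 37.4% of all windows held it. The TATA box TATAAA occurred in neither, and 13.6% of all windows held it.

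Col4a1 and Col4a2 moved together on the arrays, and the part of the shared start region in this was not tested. After subtraction of each experiment's mean, Col4a1 1452035_at and Col4a2 1424051_at had a Pearson correlation of 0.94 and a Spearman correlation of 0.94 over the 14 arrays. Without the 2 arrays farthest from the median of Col4a1, Brg1 cKO replicates 1 and 2, the Pearson value was 0.95. It was 0.96 over the 8 arrays of the Snf2h experiment and 0.95 over the 6 arrays of the Brg1 experiment. Without Snf2h cKO replicate 2, 1 of the near-identical pair, it was 0.95. These are descriptions, since the arrays share groups, experiments and the near-identical pair. Col4a2 ranked 3 among all probe sets of other genes for likeness to Col4a1. The other 4 of the first 5 were Aoc3, a cell-surface amine oxidase (0.96), Cavin2, a coat protein of caveolae (0.95), Stard5, a lipid transfer protein (0.94), and Lcp2, an adaptor of immune receptor signalling (0.93). Among the members, Nid2 ranked 177, Lamb1 1424114_s_at ranked 190 and Nid1 1416808_at ranked 300, while Lama1 ranked 11424.

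**Figure D1:**
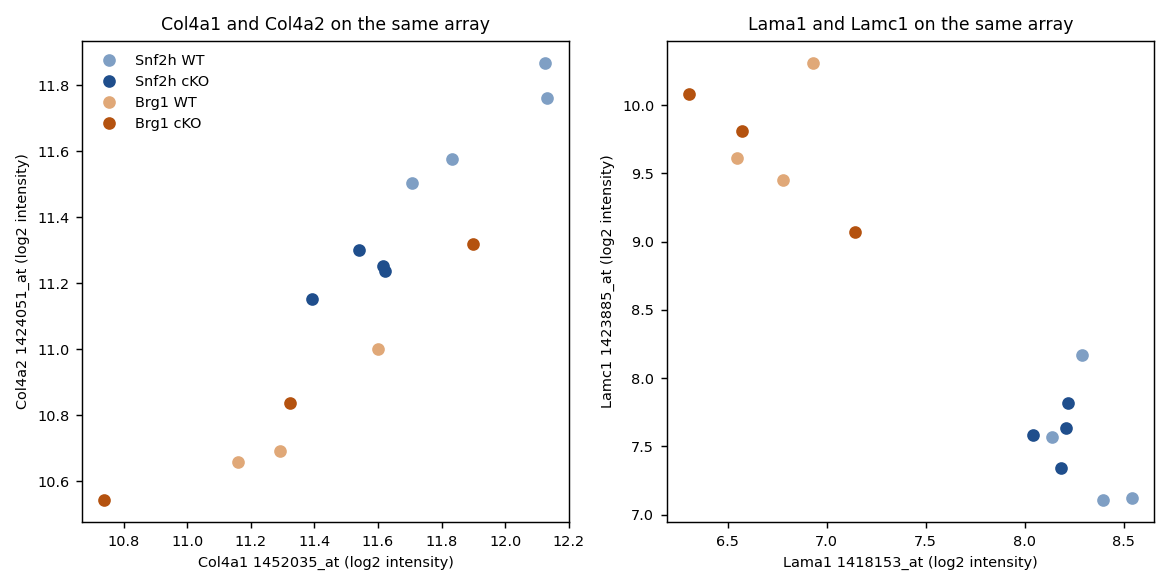
Log2 intensity of Col4a2 against Col4a1 (left) and of Lamc1 against Lama1 (right), 1 point per array, coloured by group. Col4a1 and Col4a2 rise together across the 14 arrays, whereas Lama1 and Lamc1 split into the 8 arrays of the Snf2h experiment and the 6 arrays of the Brg1 experiment.

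The first question was how capsule and basement membrane genes respond when Snf2h is deleted in the lens. Of the 16 member probe sets, 0 rose and 0 fell by limma at an adjusted p under 0.05, where 0% of the 20380 probe sets were called. At an unadjusted p under 0.05 there were 6 members, against 17.7% of all probe sets. Of these 1 was higher, against 10.1% of all probe sets, and 5 were lower, against 7.58%. The cKO arrays did not overlap the wildtype arrays for 5 members, against 10.7% of all probe sets, with 1 higher, against 6.52%, and 4 lower, against 4.17%. These 5 were Col4a1 1452035_at, Col4a2, Col4a4 and Nid1 1416808_at, lower, and Lamc1 1423886_at, higher. The count was also 5 with the near-identical cKO replicates averaged and 5 without wildtype replicate 3. Both settings can only keep or raise such a count, so they do not test it. Changes were negative for 10 of 16 members and for 53.8% of all probe sets, with a median of −0.12 and −0.03. In whole eyes, fewer cells of a type and less RNA per cell cannot be told apart.

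The widespread collagen IV chains had negative changes on all 3 probe sets in Snf2h cKO eyes. Col4a2 was at 11.87, 11.50, 11.76 and 11.58 in wildtype replicates 1 to 4 and at 11.24, 11.25, 11.15 and 11.30 in the cKO replicates. Every cKO array lay below every wildtype array. The change was −0.44 ± 0.13 (SE, n = 4 against 4), or 73.6% of wildtype, and did not pass the test (adjusted p = 0.17, limma). Col4a1 1452035_at was at 12.13, 11.71, 12.13 and 11.83 in wildtype and at 11.62, 11.62, 11.39 and 11.54 in cKO replicates 1 to 4. These groups did not overlap either, with a change of −0.41 ± 0.15 or 75.4% of wildtype (adjusted p = 0.217). Col4a1 1426348_at gave −0.55 ± 0.19 (adjusted p = 0.204), with wildtype arrays at 9.46 to 10.21 and cKO arrays at 9.15 to 9.54. Here wildtype replicate 2, at 9.46, lay inside the cKO range.

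Marker lists and RNA quality are given beside this difference, with the brightest probe set of each gene first and all probe sets second. Of 9 stroma markers 8 had negative changes (median −0.36), with mean levels of 9.58 to 10.35 in wildtype and 9.42 to 9.74 in cKO arrays, and the median over all 15 stroma probe sets was −0.14. Of 9 lens markers 7 had negative changes (median −0.27, and −0.22 over 12 probe sets), with 10.17 to 11.08 in cKO arrays. Corneal and lid epithelium markers had 7 of 10 negative (median −0.56, and −0.29 over 16 probe sets), with mean levels of 7.97 to 9.22 in wildtype and 7.71 to 8.60 in cKO arrays. Cornified skin markers had 7 of 7 negative (median −0.59, and −0.79 over 9 probe sets). Endothelium markers had no single direction, with 4 of 10 genes but 8 of 14 probe sets negative (medians 0.11 and −0.18) and mean levels of 6.65 to 7.26 in wildtype and 6.76 to 7.07 in cKO arrays. Pericyte and smooth muscle markers had 4 of 8 negative (median 0.05, and 0.18 over 16 probe sets). Muscle markers had 0 of 8 negative (median 0.28) and retina markers 1 of 7 (median 0.25, and 0.205 over 10 probe sets). Pigment cell markers had 3 of 6 negative (median 0.15) and macrophage and neutrophil markers 4 of 9 (median 0.04). Red blood cell markers had 5 of 5 negative (median −0.29). The Gapdh 3' excess was higher in every wildtype array than in every cKO array, whereas that of Actb overlapped (1.44 to 3.08 in wildtype and 1.34 to 1.83 in cKO arrays). Their part in the result was not tested. Without wildtype replicate 3 the changes were −0.41 for Col4a2 and −0.35 for Col4a1 1452035_at. With cKO replicates 1 and 2 averaged they were −0.44 (adjusted p = 0.347) and −0.43 (adjusted p = 0.377), and over all alternatives the adjusted p lay between 0.0736 and 0.374 and between 0.131 and 0.396.

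Col4a3 and Col4a4, which with Col4a5 form the collagen IV network of the mature kidney glomerulus and of some eye basement membranes, were dim on this array. Both lay below the median level of all probe sets, no detection call was used here, and such dim values may be background. RefSeq places Col4a3 and Col4a4 next to each other on GRCm38.p6. Col4a4 was at 4.11, 4.12, 3.78 and 3.77 in wildtype and at 3.32, 3.03, 3.14 and 3.13 in Snf2h cKO replicates 1 to 4. All cKO arrays lay below all wildtype arrays, with a change of −0.79 ± 0.15 (SE), or 57.9% of wildtype, and the smallest adjusted p among the members (0.0865). On a scale of log2(value + 16), which damps dim values, the change was −0.34 (adjusted p = 0.102). Over the alternatives its adjusted p lay between 0.0262, with array weights, and 0.296. Col4a3 was at 2.02, 2.02, 1.86 and 3.62 in wildtype and at 2.07, 2.03, 2.33 and 2.98 in cKO replicates. A single wildtype array, replicate 4, lay above the rest, and the change was −0.03 ± 0.39 (adjusted p = 0.975), or 0.38 without that array. In the Brg1 experiment Col4a4 gave −0.21 ± 0.19 (adjusted p = 0.838) and Col4a3 0.15 ± 0.44 (adjusted p = 0.96), with overlapping groups for both.

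**Figure D2:**
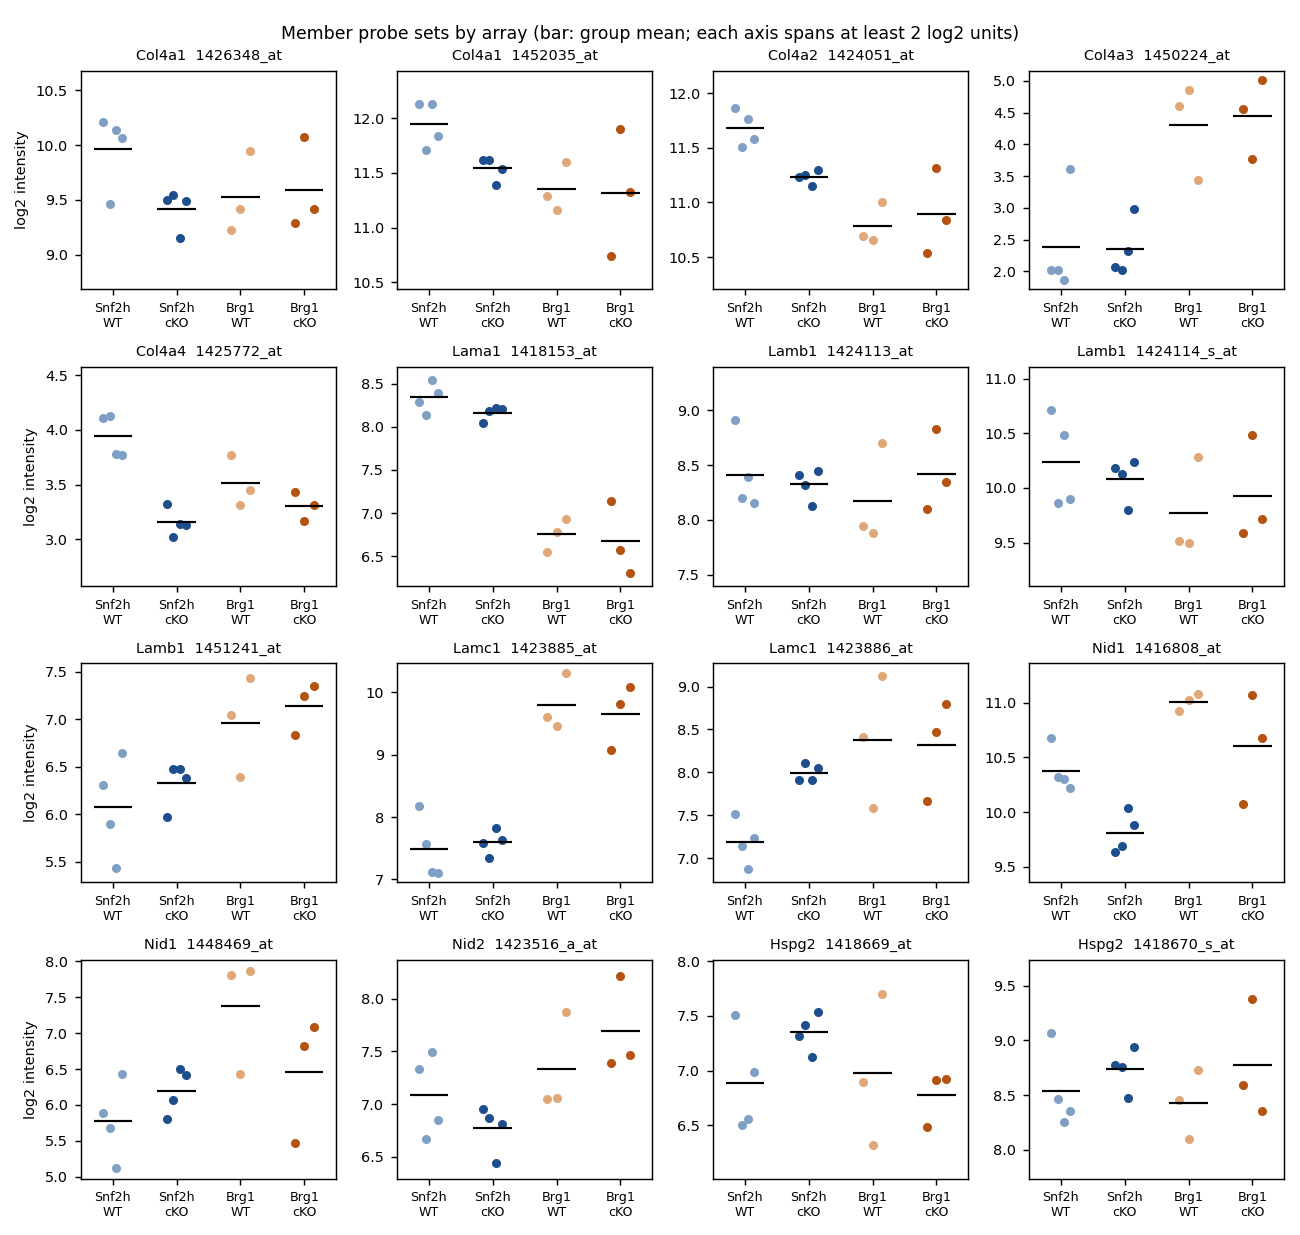
Log2 intensity of each of the 16 member probe sets on every array, with 1 panel per probe set and the group mean as a bar. In the Snf2h experiment the cKO points of Col4a1 1452035_at, Col4a2, Col4a4 and Nid1 1416808_at lie below all wildtype points. Those of Lamc1 1423886_at lie above, while in the Brg1 experiment the groups overlap in every panel.

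Lama1, Lamb1 and Lamc1 encode the alpha, beta and gamma chains of the laminin trimer that first assembles in embryonic basement membranes. Lama1 was at 8.29, 8.14, 8.54 and 8.40 in wildtype and at 8.04, 8.18, 8.22 and 8.21 in Snf2h cKO replicates. The groups overlapped, and the change was −0.18 ± 0.14 (SE, adjusted p = 0.51) with a 95% interval of −0.48 to 0.13. The interval excludes a 2-fold change in either direction.

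The gamma chain gene Lamc1 gave different values on its 2 probe sets. Lamc1 1423886_at was at 7.51, 7.14, 6.87 and 7.24 in wildtype and at 7.91, 8.10, 7.91 and 8.05 in Snf2h cKO replicates. All 4 cKO arrays lay above all wildtype arrays, with a change of 0.81 ± 0.16 (SE), or 175% of wildtype (adjusted p = 0.0888). It passed without wildtype replicate 1 (0.91, adjusted p = 0.0387) and had an adjusted p of 0.26 with cKO replicates 1 and 2 averaged. Without wildtype replicate 3, which had the high Gapdh 3' excess, the change was 0.70 (adjusted p = 0.109, limma). Over the alternatives its adjusted p lay between 0.0306, with array weights, and 0.296. Lamc1 1423885_at was at 7.10 to 8.17 in wildtype and at 7.34 to 7.82 in cKO arrays, with overlapping groups and a change of 0.10 ± 0.24 (adjusted p = 0.843). The array annotation ties both probe sets to the same source transcript, and which stretch of it each reads was not tested.

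The beta chain gene Lamb1 had overlapping groups on all 3 probe sets. Lamb1 1424114_s_at was at 9.86 to 10.71 in wildtype and 9.80 to 10.24 in Snf2h cKO arrays (change −0.15 ± 0.22, adjusted p = 0.735). Lamb1 1424113_at gave −0.09 ± 0.19 (adjusted p = 0.825) and 1451241_at gave 0.25 ± 0.25 (adjusted p = 0.618). The first pair moved together over the arrays (Pearson 0.95 after subtraction of each experiment's mean), and 1451241_at did so less (0.14 with 1424114_s_at and 0.34 with 1424113_at).

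Nid1 and Nid2 encode nidogens, which bind laminin and collagen IV to each other. Nid1 1416808_at was at 10.68, 10.32, 10.30 and 10.22 in wildtype and at 9.64, 9.69, 10.03 and 9.89 in Snf2h cKO replicates. Every cKO array lay below every wildtype array, with a change of −0.57 ± 0.16 (SE), or 67.4% of wildtype (adjusted p = 0.144, and 0.0373, with array weights, to 0.361 over the alternatives). The other probe set of Nid1, 1448469_at, which lay below the median level of all probe sets, had the opposite sign. It was at 5.90, 5.67, 5.12 and 6.44 in wildtype and at 5.80, 6.06, 6.50 and 6.41 in cKO replicates, with overlapping groups and a change of 0.41 ± 0.27 (adjusted p = 0.448). Without wildtype replicate 3, which had the high Gapdh 3' excess, the change was 0.19. The Pearson correlation of the 2 Nid1 probe sets was −0.27 over the 8 arrays of this experiment and 0.72 over the 6 arrays of the Brg1 experiment. Nid2 lay at 6.67 to 7.49 in wildtype and at 6.44 to 6.96 in cKO arrays, a change of −0.32 ± 0.21 (adjusted p = 0.452) with overlap.

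Hspg2 encodes perlecan, the large heparan sulphate proteoglycan of basement membranes. In the Snf2h experiment 1418669_at was at 6.51 to 7.51 in wildtype and 7.13 to 7.54 in cKO arrays (change 0.46 ± 0.23, adjusted p = 0.317). The probe set 1418670_s_at was at 8.26 to 9.07 and 8.47 to 8.94 (0.20 ± 0.20, adjusted p = 0.611). Both had positive changes with overlapping groups.

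**Figure D3:**
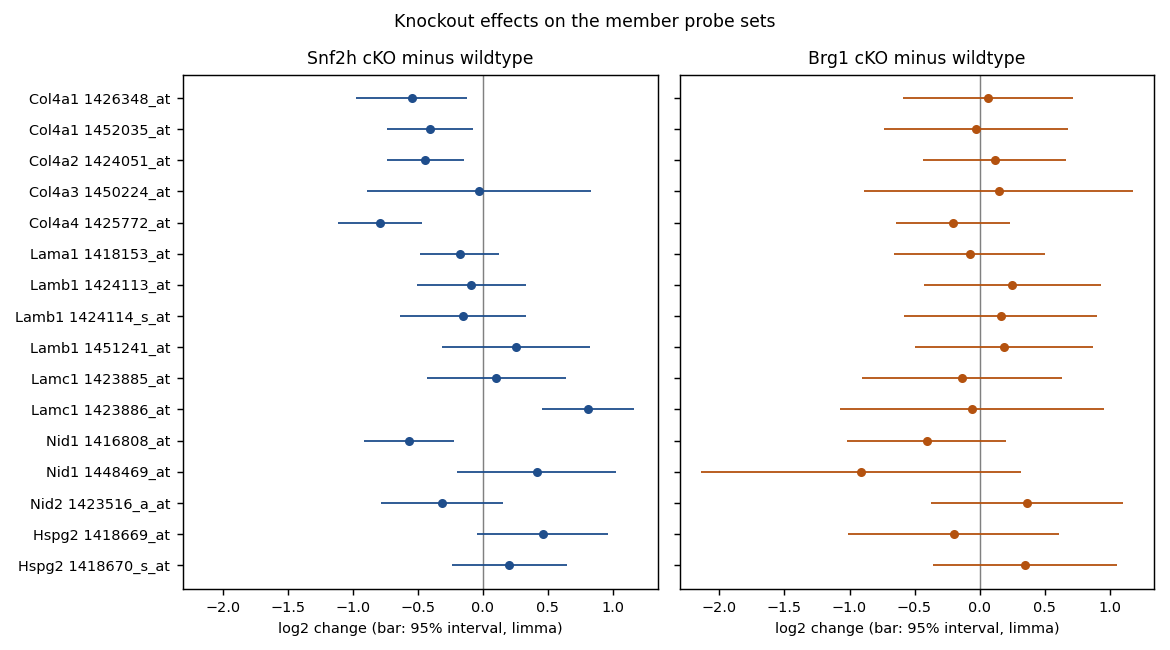
Log2 change with its 95% interval for each member probe set, Snf2h cKO minus wildtype (left) and Brg1 cKO minus wildtype (right). In the Snf2h panel the intervals of 6 probe sets exclude 0, with Col4a4 (−0.79) and Lamc1 1423886_at (0.81) farthest from it, and 0 of them passed after adjustment, and all 16 intervals in the Brg1 panel contain 0.

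The second question was the same for deletion of Brg1. Of the 16 member probe sets, 0 rose and 0 fell by limma, where 0.623% of all probe sets were called. At an unadjusted p under 0.05 there were 0 members, against 8.13% of all probe sets, and the groups did not overlap for 0 members, against 13.4%. Changes were negative for 8 of 16 members and for 50.9% of all probe sets, with a median of 0.02 and −0.01. Lens markers moved at the same time. All 12 probe sets of 9 lens marker genes had negative changes with a median of −2.18, their groups did not overlap for any of the 12, and 2 fell by the test, those of the fibre connexin Gja3 and of the fibre nuclease Dnase2b. The mean level of the lens markers was 8.51, 10.13 and 7.97 in cKO replicates 1 to 3 and 11.42 to 11.54 in wildtype arrays.

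On the same arrays the collagen IV genes Col4a1 and Col4a2 gave changes near 0 with a wide spread. Col4a2 was at 10.69, 10.66 and 11.00 in wildtype and at 10.54, 11.32 and 10.84 in cKO replicates. The change was 0.12 ± 0.24 (SE, n = 3 against 3, adjusted p = 0.939) with a 95% interval of −0.44 to 0.67. Col4a1 1452035_at was at 11.29, 11.16 and 11.60 in wildtype and at 10.74, 11.90 and 11.32 in cKO replicates. Replicate 1 of the cKO group was the lowest and replicate 2 the highest array for both genes, and the change of 1452035_at was −0.03 ± 0.30 (adjusted p = 0.987, 95% interval −0.74 to 0.68). Col4a1 1426348_at gave 0.06 ± 0.28 (adjusted p = 0.971). Endothelium markers had 2 of 10 negative (median 0.33), with mean levels of 7.245, 8.305 and 7.85 in cKO replicates 1 to 3. Pericyte and smooth muscle markers had 3 of 8 negative (median 0.19), with 7.63, 9.55 and 8.71. Stroma markers had 7 of 9 negative (median −0.22), with 10.01, 10.81 and 10.74. In all 3 lists replicate 1 was the lowest and replicate 2 the highest cKO array, as for the collagens. The part of these markers was not tested.

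Laminin genes also had overlapping groups in the Brg1 experiment. Lama1 was at 6.55, 6.78 and 6.93 in wildtype and at 7.15, 6.57 and 6.31 in cKO replicates, a change of −0.08 ± 0.25 (adjusted p = 0.962, 95% interval −0.66 to 0.50). For Lama1 the order of the cKO arrays differed from that of the collagens, with replicate 1 highest. The 3 Lamb1 probe sets gave 0.16 to 0.25 (adjusted p = 0.879 to 0.934) and the 2 Lamc1 probe sets −0.14 and −0.06 (adjusted p = 0.947 and 0.983). The 95% interval of Lamc1 1423886_at ran from −1.08 to 0.96, so a 2-fold lower level was not excluded for this probe set.

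Nid1 had negative changes on both probe sets in Brg1 cKO eyes. Nid1 1416808_at was at 10.93, 11.03 and 11.08 in wildtype and at 10.07, 11.07 and 10.67 in cKO replicates (change −0.41 ± 0.26, adjusted p = 0.773). Nid1 1448469_at was at 7.82, 6.43 and 7.87 in wildtype and at 5.47, 6.83 and 7.08 in cKO replicates (change −0.91 ± 0.53, adjusted p = 0.746). In both, cKO replicate 1 was the lowest of the 6 arrays and the groups overlapped. Without that array the changes were −0.14 and −0.42, and over the fits that left out 1 array they ran from −0.64 to −0.14 and from −1.38 to −0.42. Nid2 gave 0.36 ± 0.32 (adjusted p = 0.826), and Hspg2 gave −0.20 ± 0.35 on 1418669_at (adjusted p = 0.925) and 0.35 ± 0.30 on 1418670_s_at (adjusted p = 0.825).

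The difference between the knockout effects, Brg1 minus Snf2h, was tested over all 14 arrays. Of the 16 members 0 were called by limma, against 0.687% of all probe sets. At an unadjusted p under 0.05 there were 3 members, against 12.6%, with 2 positive, against 6.07%, and 1 negative, against 6.48%. Differences were below 0 for 5 of 16 members and for 47.4% of all probe sets. The 3 were Col4a2 with a difference of 0.56 ± 0.25 (SE, adjusted p = 0.385), Col4a4 with 0.58 ± 0.23 (adjusted p = 0.295) and Nid1 1448469_at with −1.32 ± 0.60 (adjusted p = 0.382). Lamc1 1423886_at gave −0.87 ± 0.45 (adjusted p = 0.444). A different response of any member to loss of the 2 remodellers was therefore not shown.

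Levels of some members differed between the experiments, where strain cannot be told apart from any other difference between them. Lama1 was at 8.04 to 8.54 on the 8 arrays of the Snf2h experiment and at 6.31 to 7.15 on the 6 arrays of the Brg1 experiment. Lamc1 1423885_at had the opposite order, with 7.10 to 8.17 and 9.07 to 10.31. These 2 of 16 members did not overlap between the experiments, against 21.6% of all probe sets, 11.2% higher and 10.4% lower in the Snf2h experiment. The other Lamc1 probe set overlapped, at 6.87 to 8.10 and 7.59 to 9.12. In the order of group means, Lama1 ran from Snf2h wildtype (8.34 ± 0.17, SD, n = 4) over Snf2h cKO (8.16 ± 0.08, n = 4) and Brg1 wildtype (6.75 ± 0.20, n = 3) to Brg1 cKO (6.68 ± 0.43, n = 3). Neighbours within an experiment overlapped. Col4a2 ran from Snf2h wildtype (11.68 ± 0.17) over Snf2h cKO (11.24 ± 0.06) and Brg1 cKO (10.90 ± 0.39) to Brg1 wildtype (10.78 ± 0.19), and all neighbours overlapped except the Snf2h groups.

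Some member probe sets moved together from array to array, and probe sets of the same gene could differ in this. After subtraction of each experiment's mean, Lamb1 1424114_s_at and Nid2 had a Pearson correlation of 0.94, and Nid2 had 0.87 with Col4a1 1426348_at and 0.83 with Col4a2. Lamc1 1423886_at had 0.88 with Hspg2 1418669_at and 0.73 with Nid1 1448469_at. Lamb1 1451241_at had 0.74 with this Lamc1 probe set, 0.72 with this Hspg2 and 0.69 with this Nid1 probe set. The 2 Nid1 probe sets had 0.32 with each other. Lamc1 1423886_at (6.87), Nid1 1448469_at (5.12) and Lamb1 1451241_at (5.43) were lowest of the Snf2h experiment in wildtype replicate 3, the array with the high Gapdh 3' excess. Hspg2 1418669_at was lowest in wildtype replicate 2. The part of RNA quality was not tested. Lama1 had −0.45 with Lamc1 1423885_at and 0.10 with Lamb1 1424114_s_at. Without the 2 arrays farthest from the median of the first-named probe set, the values were 0.90 for Lamb1 with Nid2, 0.82 for Lamc1 with Hspg2 and −0.09 for Lama1 with Lamc1. The arrays left out for Lama1 with Lamc1 were Brg1 cKO replicates 1 and 3. The Lama1 value with Lamc1 1423885_at was −0.44 over the 8 Snf2h experiment arrays and −0.46 over the 6 Brg1 experiment arrays. Lama1 had −0.50 with the other Lamc1 probe set, 1423886_at, over the 14 arrays. The 5 probe sets of other genes most like Lama1 were those of Kif3a, a kinesin motor subunit (0.88), the receptor gene Gpr12 (0.86), the ubiquitin ligase gene Traip (0.86), the G protein regulator gene Rgs20 (0.85) and Zfp825 (0.84). All these values describe 14 arrays that share groups and the near-identical pair.

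**Figure D4:**
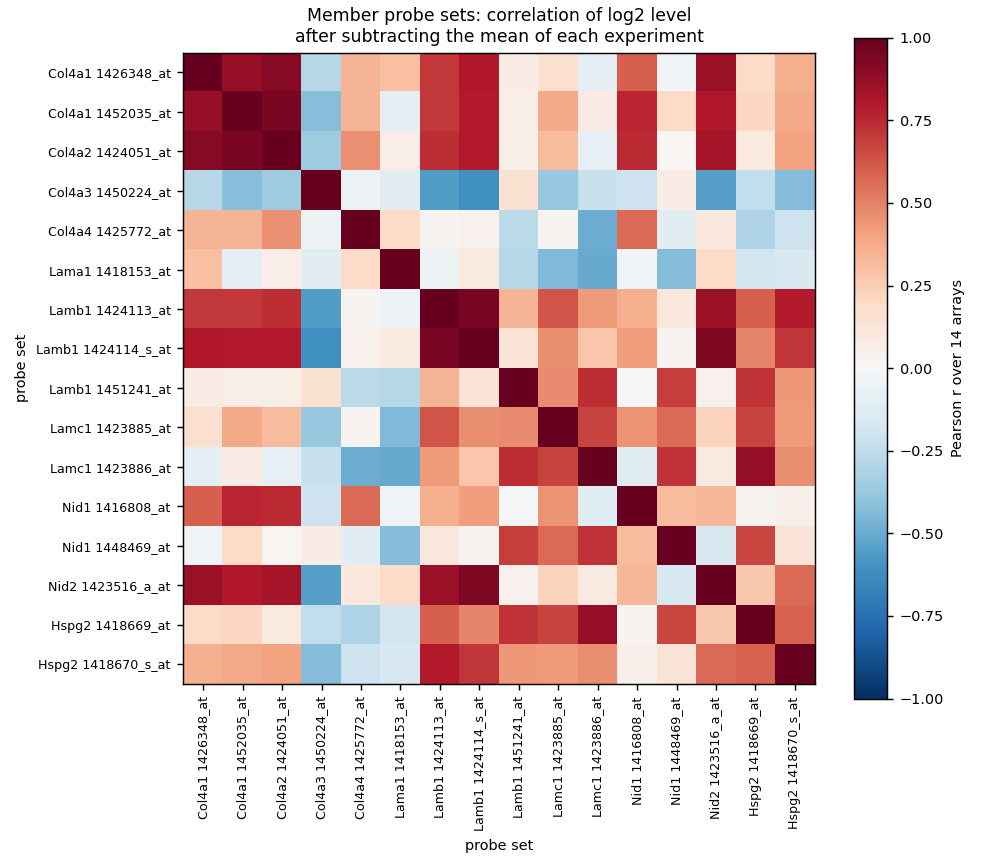
Pearson correlation over the 14 arrays between all member probe sets, after each experiment's mean was subtracted, with red for positive and blue for negative values. Col4a1, Col4a2, Nid2 and the brighter Lamb1 probe sets form a red block (Col4a1 1452035_at with Col4a2 at 0.94), and the row of Lama1 holds only pale or blue cells outside the diagonal.

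The other collagen IV and laminin chains were Col4a5, Col4a6, Lama2 to Lama5, Lamb2, Lamb3 and Lamc3, with 14 probe sets for 9 genes. In Brg1 cKO eyes 0 were called by limma, and at an unadjusted p under 0.05 there were 1 higher and 4 lower probe sets, against 4.44% and 3.68% of all probe sets. The 4 lower ones were both probe sets of Col4a5 and both of Col4a6, paired chains of the collagen IV network of epithelial and smooth muscle basement membranes. Col4a5 1425475_at was at 7.42, 7.59 and 7.52 in wildtype and at 6.38, 6.57 and 6.72 in Brg1 cKO replicates, a change of −0.96 ± 0.17 or 51.5% of wildtype (adjusted p = 0.0759). Col4a5 1425476_at was at 9.32, 9.27 and 9.09 and at 8.30, 8.14 and 8.60 (−0.88 ± 0.19, adjusted p = 0.145). Col4a6 1421006_at was at 6.85, 6.63 and 6.53 in wildtype and at 5.86, 5.33 and 5.82 in cKO replicates (−1.001 ± 0.20, adjusted p = 0.131). Col4a6 1421007_at gave −0.75 ± 0.18 (adjusted p = 0.204). In each of the 4 every cKO array lay below every wildtype array, where 6.2% of all probe sets did so and 7.23% lay above. Changes of the 14 probe sets ran from −1.001 to 1.14, with 8 negative, and 1 probe set lay wholly above wildtype. Over the alternatives the adjusted p of Col4a5 1425475_at lay between 0.058 and 0.316, and Col4a6 1421007_at passed in 1 fit over all arrays (0.0273, with 0.618 as the highest over the alternatives).

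In Snf2h cKO eyes the same 4 probe sets had overlapping groups. Col4a5 gave −0.57 ± 0.22 and −0.35 ± 0.21, and Col4a6 gave 0.20 ± 0.30 and −0.20 ± 0.13 (adjusted p = 0.239 to 0.749). The differences between the knockout effects on them did not pass (adjusted p = 0.238 to 0.629). Lens markers were also lower in Brg1 cKO eyes (median −2.28 over 9 genes). So were corneal and lid epithelium markers in 9 of 10 genes (median −1.19), with the corneal keratin Krt12 called lower. By probe set 10 of 16 were negative (median −0.82), with 2 wholly above wildtype. Their mean level was 9.03 to 9.46 in wildtype and 7.17 to 8.32 in cKO arrays. Array by array the order differed. The lens marker mean was highest in cKO replicate 2 (10.13). Both Col4a6 probe sets (5.33 and 6.98) and Col4a5 1425476_at (8.14) were lowest there, and Col4a5 1425475_at was lowest in replicate 1. The part of these markers was not tested. Of the 14 probe sets in Snf2h cKO eyes, 0 were called and 11 had negative changes. The smallest p there belonged to Lama4 1424808_at, a chain of vessel laminins (0.82 ± 0.27, adjusted p = 0.188), whose second probe set gave −0.30.

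Further basement membrane proteins gave 0 calls in either knockout. Of 20 probe sets for 12 genes such as agrin (Agrn) and collagen XVIII (Col18a1), 12 had negative changes in Snf2h cKO eyes (median −0.12) and 9 in Brg1 cKO eyes (median 0.03). In Snf2h cKO eyes Fbln2, an elastic fibre and basement membrane glycoprotein, gave 0.90 ± 0.27 (adjusted p = 0.171) and Col18a1 1418237_s_at −0.54 ± 0.20 (adjusted p = 0.223). In Brg1 cKO eyes the matricellular genes Smoc1 and Smoc2 gave 0.47 ± 0.16 (adjusted p = 0.478) and −0.63 ± 0.28 (adjusted p = 0.624).

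Genes that fold, modify, export and cross-link collagen IV had 20 probe sets for 13 genes and 0 calls in either knockout. The prolyl isomerase gene Ppib (0.47 ± 0.14 on 1437649_x_at, adjusted p = 0.155) and the prolyl hydroxylase gene P4ha2 (0.68 ± 0.20, adjusted p = 0.165) had the smallest p in Snf2h cKO eyes. P4ha1 1426519_at (−1.13 ± 0.32, adjusted p = 0.314, against 0.08 on the second probe set) and the lysyl hydroxylase gene Plod3 (0.62 ± 0.27, adjusted p = 0.629) had the smallest p in Brg1 cKO eyes. The median of the list was 0.12 in both comparisons, with 6 of 20 probe sets negative in each.

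Cell receptors for basement membrane, such as integrins and dystroglycan, had 50 probe sets for 16 genes and 0 calls in either knockout. The median was −0.09 in Snf2h and 0.10 in Brg1 cKO eyes. The syndecan gene Sdc4 (0.89 ± 0.23 on 1448793_a_at, adjusted p = 0.13) and the dystroglycan gene Dag1 (0.87 ± 0.24 on 1456131_x_at, adjusted p = 0.146, with 1 of its other 3 probe sets negative) had the smallest p in Snf2h cKO eyes. In Brg1 cKO eyes these were the integrin gene Itgav (−0.93 ± 0.35 on 1432296_a_at, adjusted p = 0.54) and the tetraspanin gene Cd151 (0.51 ± 0.21 on 1424093_x_at, adjusted p = 0.579).

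Proteases that cut basement membrane included the only calls among these lists. Of 15 probe sets for 10 genes, 2 rose and 0 fell in Brg1 cKO eyes, against 0.623% of all probe sets. Mmp3 (stromelysin, which cuts laminin, nidogen and collagen IV) was at 4.46, 4.28 and 4.59 in wildtype and at 9.53, 10.60 and 10.52 in Brg1 cKO replicates. It rose 54.7-fold (5.77 ± 0.30 SE, adjusted p = 0.000537). Mmp10, a close relative, was at 2.79, 3.56 and 2.77 in wildtype and at 5.46, 7.45 and 6.84 in cKO replicates and rose 11.7-fold (3.54 ± 0.50, adjusted p = 0.0326). The Mmp10 call was lost without wildtype replicate 1, 2 or 3 or cKO replicate 3 (adjusted p = 0.193, 0.109, 0.156 and 0.125), with changes of 3.42, 3.80, 3.41 and 3.42. On the scale of log2(value + 16) the change was 2.23 (adjusted p = 0.221), with 0.000233 as the lowest over the alternatives, while the adjusted p of Mmp3 was at most 0.0129. Both genes were dim in wildtype, so the folds are approximate. Both differed between the knockout effects (differences 6.39 ± 0.40 and 3.67 ± 0.53, adjusted p = 4.34e-06 and 0.00435). Of 9 macrophage and neutrophil markers, 9 had positive changes in Brg1 cKO eyes (median 1.08, and 0.55 over 13 probe sets, mean level 6.19 to 6.70 in wildtype and 7.72 to 8.87 in cKO arrays), S100a8 and S100a9 were called higher, and their part was not tested.

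Inhibitors of these proteases had 12 probe sets for 4 genes and 0 calls in either knockout. Timp1 was at 6.95, 5.71 and 7.55 in wildtype and at 8.58, 10.58 and 9.61 in Brg1 cKO replicates (2.85 ± 0.60, adjusted p = 0.142), with groups that did not overlap, and it passed in 1 fit over all arrays (adjusted p = 0.011, with 0.424 as the highest over the alternatives). In Snf2h cKO eyes the protease list had 0 calls and a median of −0.16. There the membrane-bound metalloproteinase gene Mmp14 gave 0.43 ± 0.12 on 1448383_at (adjusted p = 0.154) and 0.81 ± 0.30 on 1416572_at (adjusted p = 0.226). The inhibitor gene Timp2 gave 0.75 ± 0.24 on 1450040_at and −0.50 ± 0.19 on 1460287_at (adjusted p = 0.184 and 0.237). Its further probe sets gave −0.10 to 0.45.

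**Figure D5:**
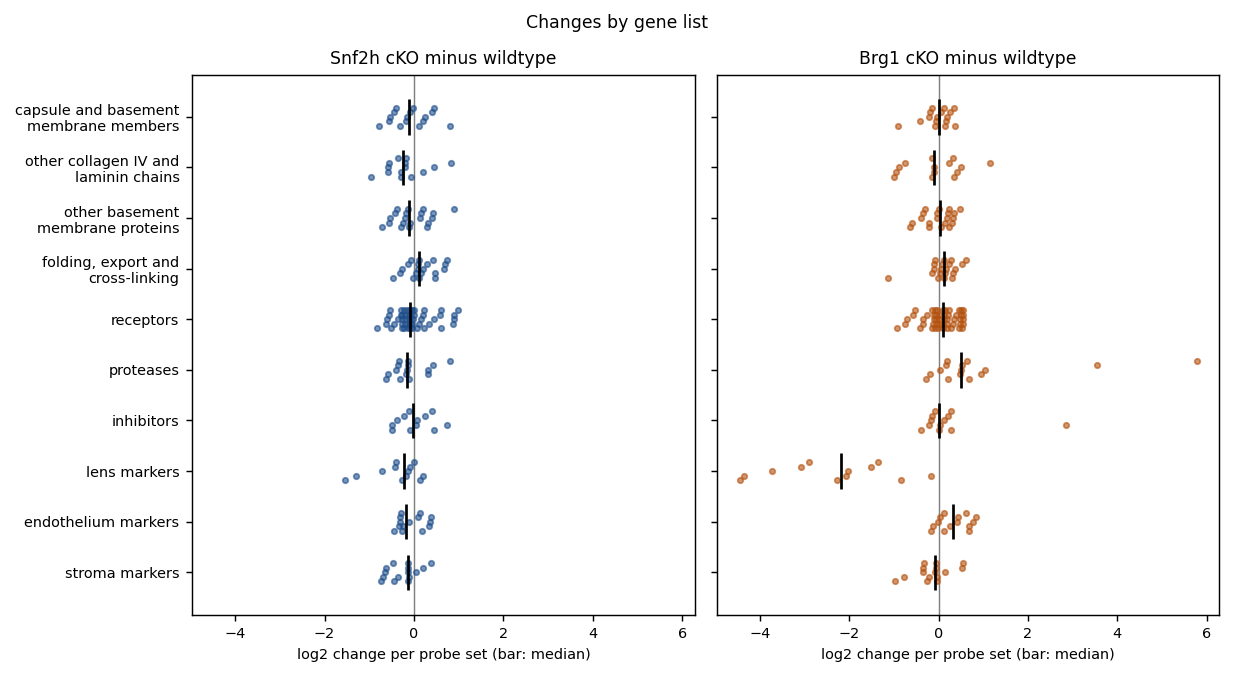
Log2 change of every probe set of the members, of the related gene lists and of 3 marker lists, with the list median as a bar, for Snf2h cKO (left) and Brg1 cKO (right) minus wildtype. In the Brg1 panel the lens markers lie to the left (median −2.18) and Mmp3 and Mmp10 far to the right, while the members centre near 0 in both panels.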

How the data were processed

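Per the submitters' processing notes the authors summarised the arrays by RMA, and what they deposited was the linear intensity of each probe set. The RMA version, and whether both experiments were processed together, are not given in the sources used here. Their log2 was taken with no further scaling. Of 22690 probe sets, 64 controls, 691 with several genes and 1555 with none were left out, and 20380 were tested. Genes carry the symbols of the platform annotation, of which RefSeq replaced 0.

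Each knockout was compared with its own wildtype, and the difference of effects over all 14 arrays, with limma 3.58.1 (lmFit, eBayes) in R 4.3.3, two-sided, with Benjamini-Hochberg adjustment over all 20380 probe sets and calls at an adjusted p under 0.05. SE is limma's moderated standard error. The scripts were tested on simulated data. The labels do not state separate animals, so p-values measure the spread between these samples. The number of arrays limits precision.

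Every member probe set is shown. From each related list the text names genes called in either comparison, at most the 6 with the smallest p, and otherwise the 2 probe sets with the smallest p. The second probe sets of Col4a5 and Col4a6 were added after their values were seen. Likeness to Col4a1 and Lama1, by Pearson correlation, names the first 5 probe sets of other genes. The members, lists and rule were chosen with earlier results of these data known.

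Alternatives were quantile normalisation, leaving out probe sets below the median level, 1 probe set per gene, array weights, a trended robust eBayes, a block for the replicate number, 1 fit over all arrays, averaging Snf2h cKO replicates 1 and 2, log2(value + 16) and leaving out each array. The count of groups that do not overlap without doubted arrays was added after seeing the data.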

Additional observations from a re-analysis of the deposited data

Results flagged for a closer look

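Of 32 groups of 4 arrays (16 member probe sets, 2 groups), 2 held an array far from the other 3, and chance gives about 1 in 20. Col4a1 1426348_at was at 9.15 in Snf2h cKO replicate 3 and at 9.49 to 9.54 in the other cKO arrays. Col4a3 1450224_at was at 3.62 in Snf2h wildtype replicate 4 and at 1.86 to 2.02 in the other wildtype arrays.

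In 3 members every cKO array lay on one side of the wildtype mean in the Snf2h experiment and on the other side in the Brg1 experiment. These members were picked by this pattern. The share of all probe sets that show it was not computed, so the count has no background to be read against. Nid1 1448469_at was higher in Snf2h cKO eyes (0.41) and lower in Brg1 cKO eyes (−0.91), a difference of −1.32 (adjusted p = 0.382, limma). Nid2 gave −0.32 and 0.36, a difference of 0.68 (adjusted p = 0.486). Hspg2 1418669_at gave 0.46 and −0.20, a difference of −0.66 (adjusted p = 0.542). None of the 3 differences passed the test. With 1 array left out the differences ran from −1.80 to −0.83 for Nid1, 0.42 to 0.95 for Nid2 and −0.99 to −0.29 for Hspg2. Nid2 itself ran from −0.45 to −0.18 in Snf2h cKO eyes, with −0.18 without wildtype replicate 3, and from 0.10, without cKO replicate 2, to 0.64, without wildtype replicate 3, in Brg1 cKO eyes.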

How the results depend on the processing

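The count of member probe sets called stayed at 0 in the Brg1 comparison and in the difference of effects under every alternative run. In the Snf2h comparison it was 3 with array weights (Col4a4 at −0.86, Lamc1 1423886_at at 0.77 and Nid1 1416808_at at −0.71, adjusted p = 0.0262, 0.0306 and 0.0373), and 0 to 1 over the fits that left out 1 array. It stayed at 0 under the other alternatives. With the replicate number as a block the count was 0 in all 3 comparisons, Col4a4 gave −0.79 (adjusted p = 0.237), and all probe sets called in the Brg1 comparison went from 127 to 50. Same-numbered arrays had correlations of their deviations of −0.23 to 0.06 in the Snf2h and 0.07 to 0.13 in the Brg1 experiment. Arrays with different numbers were not compared, so these values cannot decide whether the numbers pair the samples. Over all probe sets, calls in the Snf2h comparison went from 0 to 561 with array weights, to 184 without wildtype replicate 1 and to 77 without wildtype replicate 4, and lay between 0 and 7 under the others. Calls in the Brg1 comparison went from 127 to 15 without dim probe sets, 18 on the log2(value + 16) scale and 280 in 1 fit over all arrays, and ran from 25 to 199 with 1 array left out. Those in the difference of effects went from 140 to 7, 59 and, with the block, 81, were 82 with cKO replicates 1 and 2 averaged, and ran from 66 to 290 with 1 array left out. Signs of small changes turned. In Snf2h cKO eyes Col4a3 was 0.11 with quantile normalisation and 0.071 with cKO replicates 1 and 2 averaged, and Lamc1 1423885_at was −0.15 with array weights. In Brg1 cKO eyes Col4a1 1452035_at was 0.0049 with quantile normalisation and Col4a1 1426348_at −0.058 with array weights. With 1 array left out, Snf2h cKO values ran from −0.24 to 0.38 for Col4a3, −0.18 to 0.078 for Lamb1 1424113_at, −0.28 to 0.0055 for Lamb1 1424114_s_at and −0.025 to 0.33 for Lamc1 1423885_at. Brg1 cKO values ran from −0.18 to 0.27 and −0.32 to 0.26 for Col4a1 1426348_at and 1452035_at, −0.095 to 0.29 for Col4a2, −0.28 to 0.48 for Col4a3 and −0.31 to 0.11 for Lama1. They ran from −0.12 to 0.42 for Lamb1 1424114_s_at, −0.10 to 0.43 for Lamb1 1451241_at, −0.35 to 0.16 and −0.45 to 0.31 for Lamc1 1423885_at and 1423886_at and −0.53 to 0.16 for Hspg2 1418669_at. The cause was not tested. Over the alternatives, 248 of 262 Snf2h values and 196 of 214 Brg1 values of single members kept their sign and their side of the threshold. No detection call was used, which limits Col4a3 and Col4a4.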
